A study of Acropora aff. hyacinthus sp. E JTL-2012 with 12 samples.

Results

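Of the 16980 contigs of the assembled transcriptome of the tabletop coral Acropora aff. hyacinthus, 159 were taken as transcripts of fatty acid and lipid metabolism. They were chosen by the description deposited with each contig, which had to hold a word such as acyl-CoA, fatty acid, carnitine, lipase, desaturase, diacylglycerol or phospholipid. These words matched 163 contigs, of which 4 diacylglycerol kinases were left out by an excluded word. Averaged over the 12 libraries, a value of 10 or more was reached by 118 of the 159 contigs, which were tested, and not by the other 41. Lipase matched 60 of the 163 contigs, so digestive lipases, phospholipases and a few proteins that only act on phospholipases, such as Gamma-phospholipase A2 inhibitor CNF, stand beside the enzymes of fatty acid breakdown and synthesis. The word perilipin matched 0.

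Fatty acids are a main energy store of reef-building corals, partly made by the animal and partly passed on by its photosynthetic symbionts. Lipases free fatty acids from stored or digested fat, ligases join them to coenzyme A, the carnitine shuttle carries the products into mitochondria, and acyl-CoA dehydrogenases start their stepwise breakdown. Elongases and desaturases build long and unsaturated chains, acyltransferases put chains into membrane and storage lipids, and phospholipases cut membrane lipids again. Cytosolic phospholipase A2 is known, from mammals, to release arachidonic acid, from which eicosanoid signals are made.

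Fragments of 6 coral colonies were moved on August 3, 2010 into 2 back-reef pools and sampled near noon on August 30, 2011. Corals 2, 7 and 75 had their origin in pool 300 and corals 40, 68 and 70 in pool 400, and each coral had a fragment living in pool 300 and another in pool 400. This made 4 groups of 3 corals: those of origin 300 that stayed in pool 300, those of origin 300 living in pool 400, those of origin 400 living in pool 300 and those of origin 400 that stayed in pool 400. Pool 300 is known as the pool with the wider swings of water temperature. RNA came from polyps, which hold coral tissue together with its symbionts, so that fewer cells of a type and less RNA per cell cannot be told apart.

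Values are reads divided by a size factor, as deposited, and have no correction for contig length, so they are compared between libraries and not between contigs. Libraries held between 557339 and 1643526 recovered reads, and 1 read was worth 0.586 to 1.66. The scale of the pool 400 libraries was uneven: a median-ratio factor computed on the deposited values was 1.60 for coral 70 in pool 400 and 0.797 for coral 2 in pool 400. The median log2 difference of coral 70, pool 300 minus pool 400, was -0.56 over the 118 tested lipid contigs and -0.53 over all 11903 contigs tested, and 0.08 and 0.09 after rescaling. Differences below are from limma on log2(value + 1), with a contig passing at an adjusted p under 0.05. Results obtained after rescaling are marked as such. All others, among them the variance shares and coral ranges, are on the deposited scale only.

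Fragments of corals 40 and 68 stood apart from their labels over all contigs. Deviations from the group means of their pool 300 and pool 400 fragments correlated across contigs at r = -0.22 for coral 40 and 0.06 for coral 68 as labelled, and at 0.17 and 0.31 when their pool 400 fragments were swapped. Over the 118 lipid contigs, which are not independent of each other, the values were 0.30 and 0.37 as labelled and -0.15 and -0.07 exchanged. The labelled pairs lay closer than the exchanged pairs in 58 of 118 lipid contigs (49.2%) and in 42.6% of all contigs tested. The pool tests were also run with these fragments swapped and with both corals left out, and contigs that then passed or no longer passed are given. Counts of corals by direction, origin tests, variance shares and coral ranges use the labels as given, unless stated.

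The first comparison set the pool a fragment lived in against the other pool of the same coral. No lipid contig passed the test over 6 corals. The largest shifts were in enzymes that cut lipids. Both contigs of Cytosolic phospholipase A2 had lower values in pool 300 than in pool 400 in every coral. Several contigs of the pancreatic lipase family, though not the lipases as a group, had higher values in pool 300 in most corals. Over 6 corals, contigs of beta-oxidation, the carnitine shuttle, chain elongation and glycerolipid synthesis lay within 1 log2 unit of equal levels.

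Of the 118 tested contigs 0 passed by limma, where 0.344% of all contigs tested did, and 0 by edgeR, where 0.0672% did. An unadjusted p under 0.05 was reached by 5 of the 118 by limma and by 8 by edgeR, where 4.87% and 5.5% of all contigs reached it. The median log2 difference was 0.04 over the lipid contigs and 0.03 over all contigs, with 51 contigs lower and 67 higher in pool 300. Of the 118, 5 (4.24%) had a difference over 1 log2 unit in size, where 1.72% of all contigs had. The 5 were both Cytosolic phospholipase A2 contigs, Lipase member I, Pancreatic triacylglycerol lipase and a contig of Pancreatic lipase-related protein 2. The distribution by role is shown in the plot of pool effects.

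**Figure D1:**
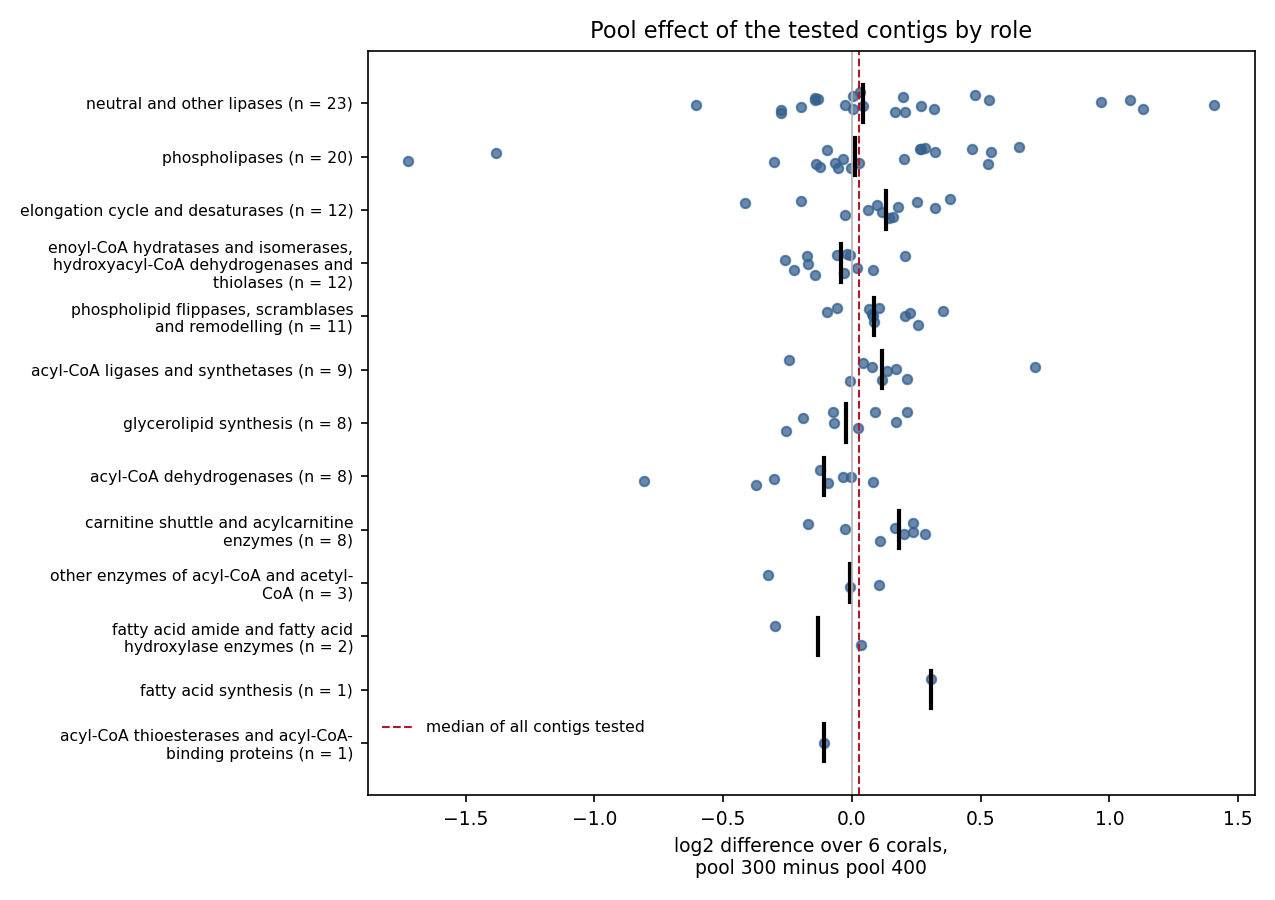
Each point is one of the 118 tested contigs; the horizontal axis gives its log2 difference over 6 corals, pool 300 minus pool 400, and rows give the role. Black bars are role medians and the dashed line is the median of all contigs tested (0.03). The lowest values are both contigs of Cytosolic phospholipase A2 (-1.72 and -1.38), and the 4 highest are lipases (0.97 to 1.41).

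Cytosolic phospholipase A2 (contig172456) had values of 65.2, 43.6, 82.5, 68, 81.9 and 61.8 in the pool 300 fragments of corals 2, 7, 75, 40, 68 and 70, against 172, 101, 441, 284, 96.2 and 126 in their pool 400 fragments. Every pool 300 value lay below every pool 400 value on the deposited scale, and corals 75 and 40 were highest in pool 400. After rescaling the pools overlapped, because coral 70 in pool 400 fell below corals 75 and 68 in pool 300. Pool 300 fragments averaged 67.2 ± 14.4 and pool 400 fragments 203.6 ± 136 (SD, n = 6 each), which is -1.38 in log2 units (SE 0.25; limma adjusted p = 0.0589). By edgeR the log2 difference was -1.44 with an adjusted p of 0.0933, and after median-ratio rescaling the limma adjusted p was 0.122. When the pool 400 fragments of corals 40 and 68 were swapped in the block, the contig passed (limma adjusted p = 0.0166), and it passed without coral 68, at -1.61 (limma adjusted p = 0.0352). With no minimum mean it also passed (limma adjusted p = 0.0423), and over all settings its adjusted p ran from 0.0166 to 0.203.

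The second contig of that description, contig204384, had low values of 2.90, 6.85, 4.02, 8.79, 4.82 and 5.71 in pool 300, against 9.94, 12.2, 65.5, 43.0, 9.62 and 15.9 in pool 400, in the same order of corals. Here the pools did not overlap on either scale, and corals 75 and 40 were highest in pool 400, as for the other contig. Its log2 difference was -1.72 (SE 0.43, limma adjusted p = 0.22; edgeR adjusted p = 0.117). Whether the 2 contigs are pieces of a single transcript was not tested. All 6 pool 300 values lay below all 6 pool 400 values in these 2 of 118 lipid contigs (1.69%) and in 0.47% of all contigs. After rescaling this held in contig204384 alone, 1 of 118 (0.847%), and in 0.21% of all contigs.

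Lipase member I (contig181712), a lipase of the pancreatic lipase family that in mammals acts on phosphatidic acid, had values of 20.3, 34.2, 75.4, 136, 9.63 and 22.8 in pool 300, against 9.94, 4.36, 21.1, 123, 8.25 and 11.1 in pool 400. The pool 300 fragment was higher in all 6 corals as labelled, but the pools overlapped widely, because coral 40 was high and coral 68 low in both. With the pool 400 fragments of these corals swapped, coral 68 was lower in pool 300 (9.63 against 123). Its log2 difference was 1.13 (SE 0.35, limma adjusted p = 0.477). After rescaling, the pool 300 fragment was higher in 5 of 6 corals. Lipase ZK262.3 (contig176424), named after a nematode gene and chosen here after its values were seen, was the other contig with higher values in pool 300 in all 6 corals, by between 0.05 and 1.66 log2 units. A higher value in pool 300 in all 6 corals was found in these 2 of 118 lipid contigs (1.69%) and in 1.82% of all contigs, and a lower one in 2 (1.69%) and in 1.76% of all contigs. After rescaling 4 were higher in all 6 corals (3.39%, where 1.54% of all contigs were) and 3 lower (2.54%, where 1.86% were).

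Pancreatic triacylglycerol lipase (contig176724), a secreted enzyme of fat digestion, had values of 59.4, 41.7, 57.3, 144, 26.5 and 98.0 in pool 300, against 26.5, 3.49, 24.3, 90.1, 44.0 and 50.6 in pool 400. The pool 300 value was higher in every coral but coral 68. The log2 difference was 1.08 (SE 0.40, limma adjusted p = 0.753). The value of coral 7 in pool 400 rests on 4 reads.

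**Figure D2:**
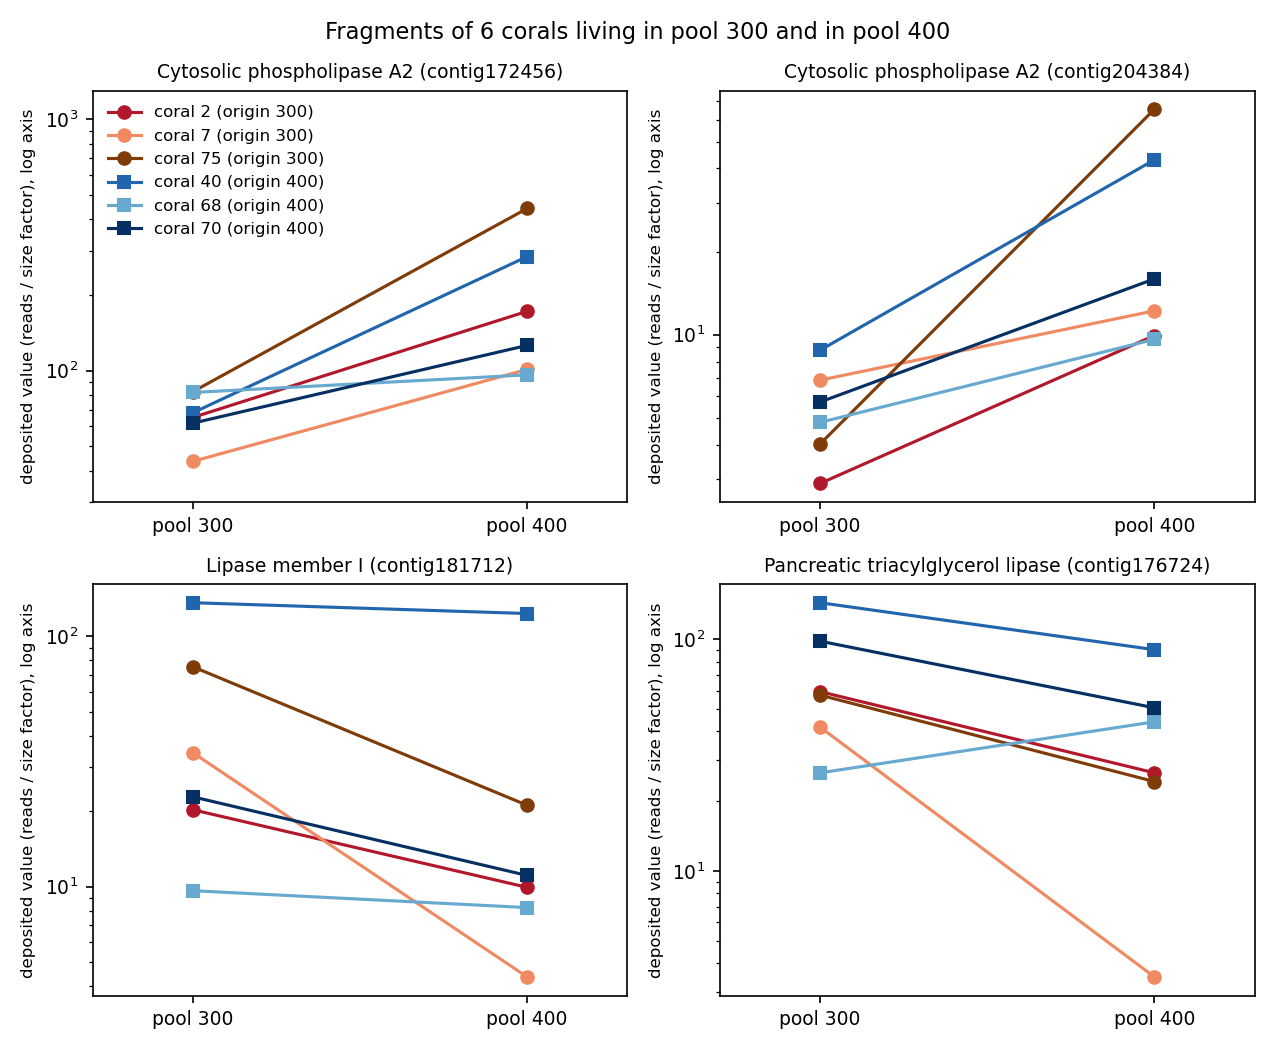
Deposited values (reads divided by a size factor, log axis) of 4 contigs in the fragments living in pool 300 (left) and in pool 400 (right); each line joins the 2 fragments of a coral, with circles for origin 300 and squares for origin 400. Both Cytosolic phospholipase A2 contigs were lower in pool 300 in 6 of 6 corals, and Lipase member I was higher in 6 of 6 as labelled.

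Of the 4 tested contigs of Pancreatic lipase-related protein 2, a relative of that lipase, contig179083 and contig174523 differed by 1.12 and 1.98 log2 units between the fragments of a coral on average, and contig179098 and contig216524 by 0.60 and 0.47, where the median of the lipid contigs was 0.48. For contig179083 the values were 18.8, 47.3, 23.1, 42.2, 9.63 and 42.8 in pool 300, against 16.6, 4.36, 20.1, 24.0, 13.7 and 10.4 in pool 400. Coral 68 alone was lower in pool 300, and the log2 difference was 0.97 (SE 0.45). For contig174523 the values were 2.90, 32.4, 4.02, 22.3, 12.0 and 18.1 in pool 300, against 6.62, 0.872, 7.39, 16.5, 0 and 4.16 in pool 400, where the coral 68 fragment had no read. Corals 2 and 75 went the other way, and the log2 difference of 1.41 had an SE of 0.73.

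Among the remaining lipases, Pancreatic lipase-related protein 1 (contig152043) had 203, 173, 172, 146, 136 and 169 in pool 300, against 176, 142, 140, 90.1, 120 and 176 in pool 400. The difference was small and of one sign in 5 of 6 corals, at 0.27 (SE 0.12). Monoglyceride lipase (contig108686), which releases the last fatty acid of a stored fat, was lower in pool 300 in 5 of 6 corals on the deposited scale and in all 6 after rescaling, with a log2 difference of -0.61 (SE 0.31). Over all 23 tested lipases of this kind 8 were lower and 15 higher in pool 300, with differences between -0.61 and 1.41 and a median of 0.04. On the rescaled values 10 were lower, and the median was again 0.04.

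Phospholipases other than the cytosolic enzyme lay closer to equal levels. The 2 contigs described as Phospholipase A2 had higher values in pool 300 in most corals. For contig151275 these were 24.6, 77.2, 30.2, 32.2, 18.1 and 94.2 in pool 300, against 14.9, 41.9, 29.6, 43.8, 5.5 and 40.9 in pool 400, a log2 difference of 0.65 (SE 0.28). Only coral 40 was lower in pool 300. For contig204696 the log2 difference was 0.54 (SE 0.26), with 4 of 6 corals higher on the deposited scale. Putative phospholipase B-like 2 (contig69415), a lysosomal protein, averaged 360.1 ± 82.4 across pool 300 fragments and 360.6 ± 79.6 across pool 400 fragments (SD, n = 6 each), and is an example of a contig with nearly the same level in both pools. Of 20 tested contigs of the group 10 were lower and 10 higher in pool 300.

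Fatty acid uptake and activation showed 7 of 9 tested contigs higher in pool 300 and 2 lower, with a median of 0.12. Long-chain fatty acid transport protein 4 (contig153098), which takes up long chains and joins them to coenzyme A, had 27.5, 25.5, 28.2, 27.0, 16.9 and 24.7 in pool 300, against 6.62, 13.1, 19.0, 10.7, 15.1 and 35.3 in pool 400. It was higher in pool 300 in every coral but coral 70 on the deposited scale, and in all 6 after rescaling, with a log2 difference of 0.71, with an SE of 0.33 (limma adjusted p = 0.9996). Long-chain-fatty-acid--CoA ligase 4 (contig53933) averaged 411.3 ± 45.6 across pool 300 fragments and 366.4 ± 51.3 across pool 400 fragments (SD, n = 6 each), at 0.17 (SE 0.10). For Acyl-CoA-binding protein (contig177134), which holds acyl-CoA in the cytosol, the log2 difference was -0.11 (SE 0.11).

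No contig of fatty acid breakdown passed. Of all contigs tested 44.4% were lower in pool 300, and no difference between roles was tested. In the carnitine shuttle 6 of 8 tested contigs were higher in pool 300, with a median of 0.18 and no difference over 0.29. Carnitine O-acetyltransferase (contig152777), which buffers acetyl groups, averaged 183.7 ± 28.5 across pool 300 fragments and 170.5 ± 29.7 across pool 400 fragments (SD, n = 6 each). Among acyl-CoA dehydrogenases 7 of 8 were lower in pool 300, with a median of -0.11. Medium-chain specific acyl-CoA dehydrogenase (contig169572) had 330, 356, 335, 334, 322 and 384 in pool 300, against 209, 332, 412, 321, 456 and 572 in pool 400. Its pool 300 values were the more even, and the corals were divided 3 to 3 in direction. Very long-chain specific acyl-CoA dehydrogenase (contig600061) had the largest difference of that group, at -0.81 (SE 0.61), from values between 1.45 and 14.9 in pool 300, against 1.66 and 38.8 in pool 400. Of 12 later enzymes of the spiral (hydratases, isomerases, hydroxyacyl-CoA dehydrogenases and thiolases) 9 were lower in pool 300, between -0.26 and 0.21. After rescaling 6 of 8, 1 of 8 and 3 of 12 of these contigs were higher in pool 300, as on the deposited scale.

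Chain elongation and desaturation had 9 of 12 tested contigs higher in pool 300, with a median of 0.13. Trans-2,3-enoyl-CoA reductase (contig154318), the last enzyme of the elongation cycle, had 123, 73.5, 62.4, 65.1, 91.5 and 70.4 in pool 300, against 76.2, 56.7, 61.3, 53.7, 44.0 and 76.2 in pool 400. Coral 70 alone was lower in pool 300, and after rescaling none was. The log2 difference was 0.38 (SE 0.18, limma adjusted p = 0.9996). The 3-hydroxyacyl-CoA dehydratase of the same cycle (contig68781) averaged 387.6 ± 57.6 across pool 300 fragments and 356.2 ± 43.4 across pool 400 fragments (SD, n = 6 each), at 0.12 (SE 0.08). Acetyl-CoA carboxylase 2 (contig68485), which makes malonyl-CoA and was the 1 contig of fatty acid synthesis, had a log2 difference of 0.31 (SE 0.26).

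Glycerolipid synthesis, the making of membrane and storage lipids, had 4 contigs lower and 4 higher, between -0.26 and 0.22. Glycerol-3-phosphate acyltransferase 4 (contig187840), which adds the first chain, averaged 69.0 ± 20.4 across pool 300 fragments and 67.1 ± 17.6 across pool 400 fragments (SD, n = 6 each). Of the flippases, scramblases and remodelling enzymes, which move phospholipids between membrane leaflets or exchange their chains, 9 of 11 were higher in pool 300, the highest being Phospholipid scramblase 1 (contig218901) at 0.36 (SE 0.18). Fatty-acid amide hydrolase 2-A (contig146783), which breaks down fatty acid amides, averaged 189.0 ± 14.9 across pool 300 fragments and 194.4 ± 74.9 across pool 400 fragments (SD, n = 6 each).

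The next question was whether corals of both origins differed between pools alike. In corals from pool 300, 0 of 118 lipid contigs passed by limma, where 0.554% of all contigs did, and 0 by edgeR, where 0.361% did. An unadjusted p under 0.05 was reached by 7 of the 118 by limma and 5 by edgeR, where 4.71% and 4.54% of all contigs reached it. In corals from pool 400, 0 of 118 passed, where 0% of all contigs did, and 2 reached an unadjusted p under 0.05 by limma and 3 by edgeR (2.05% and 2.72% of all contigs). The difference between the origins was tested itself: 0 of 118 passed, where 0% of all contigs did by limma and 0.0084% by edgeR. Of the 118, 2 reached an unadjusted p under 0.05 by limma and 3 by edgeR, where 1.77% and 1.8% of all contigs did. Over all contigs the median was 0.13 in origin 300 corals and -0.09 in origin 400 corals, and for the lipid contigs 0.13 and -0.04. After rescaling these were -0.02 and 0.03 for all contigs and -0.01 and 0.08 for the lipid contigs, so the sign in each origin turned with the scale.

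Cytosolic phospholipase A2 had lower values in pool 300 in both origins. For contig172456 the log2 difference was -1.66 in origin 300 corals (SE 0.34, limma adjusted p = 0.0846) and -1.10 in origin 400 corals (SE 0.34, limma adjusted p = 0.9997), and the difference between these was -0.57 (SE 0.48). In corals from pool 300 the contig passed with the swapped fragments (limma adjusted p = 0.0210) and without both (limma adjusted p = 0.0239), settings that alter only the shared estimate of the spread for that comparison. It also passed there without coral 40 (limma adjusted p = 0.0177) and without coral 68 (limma adjusted p = 0.0479), and over all settings its adjusted p ran from 0.0177 to 0.544. For contig204384 the log2 differences were -1.99 and -1.46.

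Of the contigs with higher values in pool 300, Lipase member I and Pancreatic triacylglycerol lipase had the largest differences in corals from pool 300. The log2 difference of Lipase member I was 1.82 in origin 300 corals (SE 0.42, limma adjusted p = 0.149) and 0.44 in origin 400 corals (SE 0.42). That of Pancreatic triacylglycerol lipase was 1.86 in origin 300 corals (SE 0.46, limma adjusted p = 0.219) and 0.30 in origin 400 corals (SE 0.46). In both contigs coral 7 had the largest single difference, with 4.36 and 3.49 in its pool 400 fragment. The tests of the difference between origins gave 1.38 (SE 0.59) and 1.56 (SE 0.65), each with a limma adjusted p of 0.9996 over all contigs.

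The reverse order was seen in Lysosomal acid lipase/cholesteryl ester hydrolase (contig209197), which frees fatty acids from lipids taken up by the cell. It had 56.5, 21.8 and 25.1 in pool 300, against 53.0, 30.5 and 50.7 in pool 400, in corals 2, 7 and 75, and 32.8, 71.0 and 40.9 in pool 300, against 24.8, 38.5 and 37.4 in pool 400, in corals 40, 68 and 70. As labelled, corals from pool 400 were all higher in pool 300, and corals 7 and 75 lower. With the pool 400 fragments of corals 40 and 68 swapped, coral 40 was lower in pool 300 (32.8 against 38.5). The difference between origins was -0.92 (SE 0.45, limma adjusted p = 0.9996). Patatin-like phospholipase domain-containing protein 2 (contig195785), the main lipase of stored fat in mammals, had a difference between origins of -0.70 (SE 0.37), and Putative phospholipase B-like 2 (contig152844) one of 1.16 (SE 0.53).

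**Figure D3:**
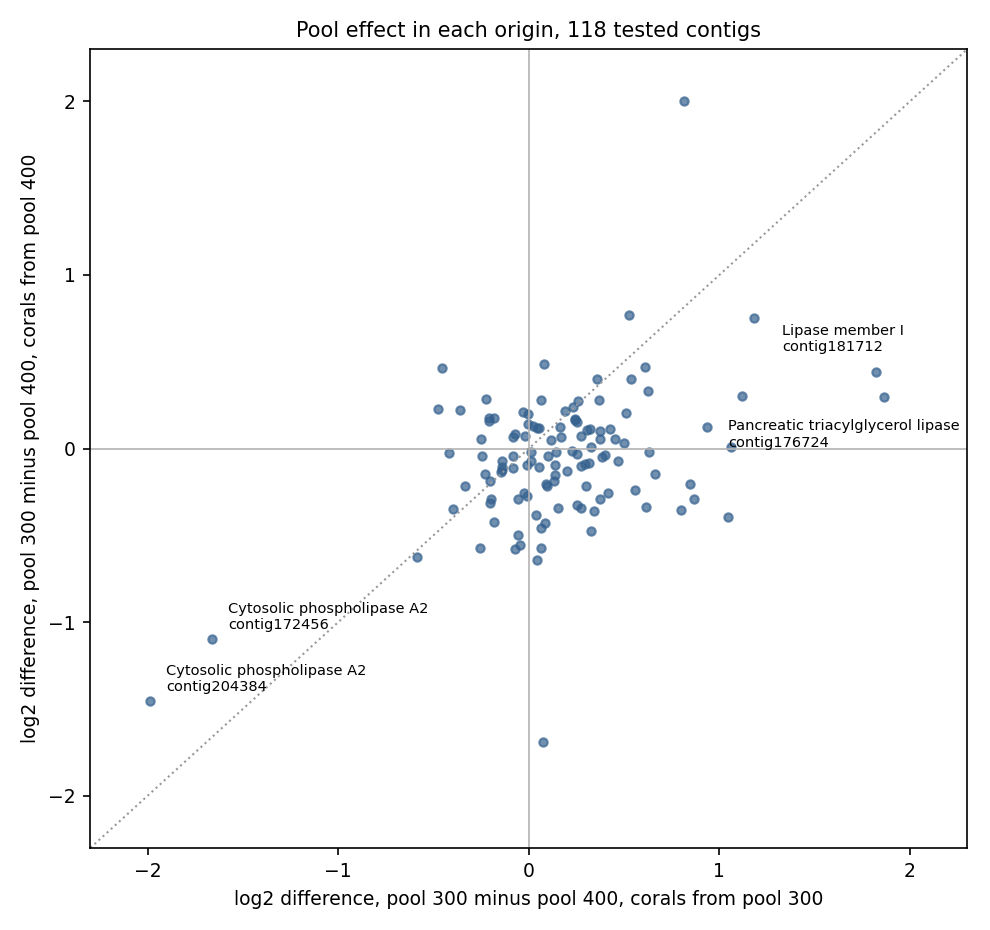
Log2 difference of each of the 118 tested contigs, pool 300 minus pool 400, in origin 300 corals (horizontal axis) and origin 400 corals (vertical axis); the dotted line marks equal differences. Cytosolic phospholipase A2 lies low on both axes (contig172456 at -1.66 and -1.10), and 2 lipases lie to the right (1.82 and 1.86) with small values on the vertical axis (0.44 and 0.30).

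Corals were also compared by pool of origin, over the mean of both fragments of each coral. No lipid contig passed (0 of 118 by limma, where 0.0336% of all contigs did, and 0 by edgeR, where 0.0252% did). An unadjusted p under 0.05 was reached by 3 of the 118 by limma and 1 by edgeR, where 2.64% and 2.81% of all contigs reached it. In fragments living in pool 300, 0 of 118 passed, where 0.0084% of all contigs did by limma, and 3 reached an unadjusted p under 0.05 by limma and 2 by edgeR (2.21% and 2.3% of all contigs). Of fragments living in pool 400, 0 of 118 passed, where 0.0252% of all contigs did, with 2 at an unadjusted p under 0.05 by limma and 4 by edgeR (2.27% and 2.71% of all contigs). The next counts are on the deposited scale only. Within pool 300 all values of origin 300 lay above all of origin 400 in 4 of 118 contigs, where 2.55% of all contigs did, and below in 1, where 3.14% did. Within pool 400 they lay above in 0, where 0.958% did, and below in 4, where 3.85% did. The median over the lipid contigs was -0.12, origin 300 minus origin 400, where that over all contigs was -0.10, and 0.02 and 0.03 after rescaling. With 3 corals of each origin, differences had a median SE of 0.35 over the lipid contigs.

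Pancreatic lipase-related protein 1 (contig184325) had the largest difference by origin. It had 88.3, 91.5 and 99.6 in the pool 300 fragments of the origin 300 corals 2, 7 and 75, against 7.03, 10.8 and 83.7 in those of the origin 400 corals 40, 68 and 70. In the pool 400 fragments the values were 77.8, 156 and 134 in the origin 300 corals, against 4.13, 13.7 and 165 in the origin 400 corals. Corals 40 and 68 were low in both pools, and coral 70 lay near the corals from pool 300. The log2 difference was 2.29 (SE 0.81, limma adjusted p = 0.998; edgeR log2 difference 1.38). Without coral 70 the contig passed at 3.52 (limma adjusted p = 0.0493), and also among fragments living in pool 300 (3.27, limma adjusted p = 0.0331). Leaving out coral 75 it passed among fragments living in pool 400, at 2.26 (limma adjusted p = 0.0257). In that setting 91 of all contigs passed. Over all settings the highest adjusted p of these comparisons was 0.9999.

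Lipase member K (contig179895) also had its lowest values in corals 40 and 68. Its values in pool 300 were 29.0, 82.8 and 96.6 in corals 2, 7 and 75, against 10.6, 18.1 and 121 in corals 40, 68 and 70, and in pool 400 they were 39.7, 82.0 and 114, against 4.96, 19.2 and 123. In each pool coral 70 was highest on the deposited scale, but in pool 400 corals 7 and 75 lay above it after rescaling. The log2 difference by origin was 1.32 (SE 0.80). A marker of the symbionts, Photosystem II CP47 chlorophyll apoprotein (contig194637), was low in the same corals. It had 30.4, 28.0 and 25.1 in pool 300 and 24.8, 37.5 and 51.8 in pool 400 in the origin 300 corals, against 0.586, 0 and 13.3 in pool 300 and 0, 1.37 and 17.3 in pool 400 in the origin 400 corals. Its log2 difference by origin was 3.38, which did not pass over all contigs, and its part in the values of contig184325 and contig179895 was not tested. The other symbiont marker, Photosystem Q(B) protein (contig217061), had 55.0, 44.2 and 52.3 in pool 300 and 28.1, 57.5 and 69.7 in pool 400 in the origin 300 corals, against 42.8, 86.7 and 62.8 in pool 300 and 62.0, 63.2 and 57.5 in pool 400 in the origin 400 corals. Its origins overlapped. Of the 118 contigs only Pancreatic lipase-related protein 2 (contig179098) had coral means of log2 values that were all higher in origin 300 than in origin 400 on the deposited scale (0.847%, where 1.35% of all contigs had), and 10 had after rescaling (8.47%, where 3.68% of all contigs had). Its pool 300 values of 55.0, 39.9 and 41.2 lay above 31.7, 22.9 and 18.1 in corals 40, 68 and 70, and its pool 400 value in coral 70 was 88.0.

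Secretory phospholipase A2 (contig181463), a small enzyme secreted in animal venoms, digestive fluids and inflammation, ran the other way. It had 30.4, 15.6 and 17.1 in pool 300 and 23.2, 19.2 and 31.7 in pool 400 in the origin 300 corals, against 36.3, 48.2 and 40.9 in pool 300 and 39.7, 41.2 and 38.8 in pool 400 in the origin 400 corals. On the deposited scale all 6 values of origin 300 lay below all 6 of origin 400. After rescaling the value of coral 70 in pool 400 fell among those of origin 300, while the coral means kept their order. The coral means were 22.9 ± 4.90 in origin 300 and 40.9 ± 3.46 in origin 400 (SD, n = 3), with a log2 difference of -0.85, with an SE of 0.31 (limma adjusted p = 0.998; edgeR log2 difference -0.75). Coral means of log2 values of origin 300 lay below all those of origin 400 in 5 of 118 lipid contigs (4.24%) and in 4.93% of all contigs, and after rescaling in 4 (3.39%) and in 3.91%. The other 4 were Long-chain-fatty-acid--CoA ligase 1 (contig178164) at -0.65, Fatty acid 2-hydroxylase (contig147665) at -0.98, Gastric triacylglycerol lipase (contig74424) at -0.82 and Fatty acid desaturase 1 (contig131085), which makes polyunsaturated chains, at -0.91. After rescaling contig147665 and contig131085 no longer had this order, and Lysosomal acid lipase/cholesteryl ester hydrolase (contig48404) had it.

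Pancreatic triacylglycerol lipase (contig176724), described above by pool, had a log2 difference by origin of -1.25 (SE 0.50, limma adjusted p = 0.998), which was -2.03 among fragments living in pool 400 (SE 0.68, limma adjusted p = 0.984). Leaving out coral 75, it was 1 of the same 91 there, at -2.42 (limma adjusted p = 0.0323), and its adjusted p reached 0.9997 in other settings. Its pool 400 values of 26.5, 3.49 and 24.3 in origin 300 all lay below 90.1, 44.0 and 50.6 in origin 400 on the deposited scale. After rescaling coral 2 lay slightly above coral 70, so this order did not hold.

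**Figure D4:**
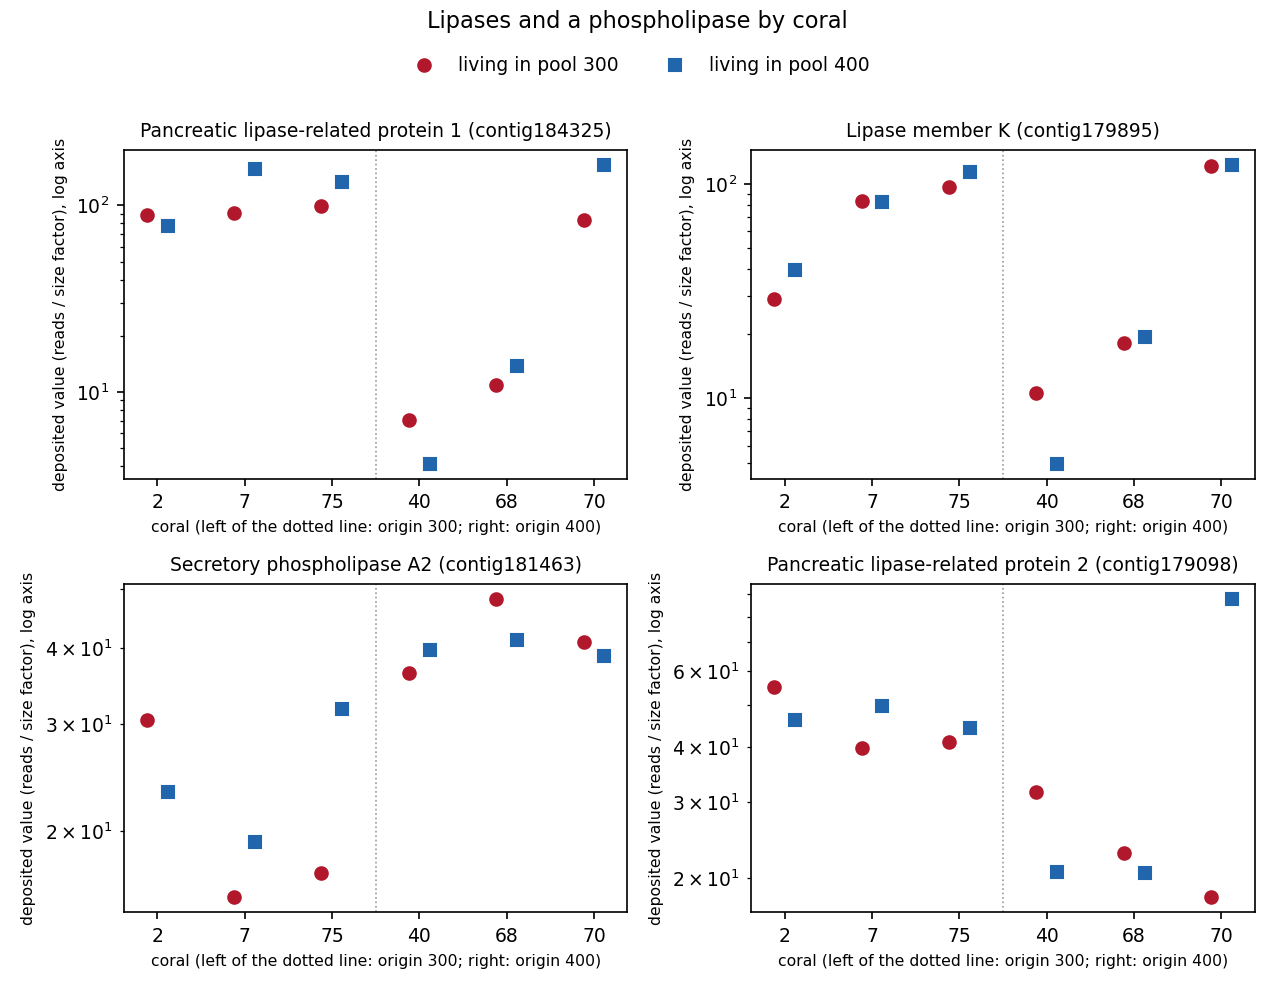
Deposited values (reads divided by a size factor, log axis) of 4 contigs in each coral, with origin 300 left of the dotted line and origin 400 right of it; circles are fragments living in pool 300 and squares fragments living in pool 400. In the top panels corals 40 and 68 are low and coral 70 is not. In Secretory phospholipase A2 all deposited values of origin 300 lie below all of origin 400, which did not hold after rescaling.

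On the deposited scale and with fragments as labelled, the largest median share of the sum of squares lay between corals of the same origin. Shares were not divided by degrees of freedom. Corals within an origin and the part left over have more of these than origin, pool and origin by pool, which raises their shares. The median share of the sum of squares of a lipid contig was 51.4% between corals within an origin, 6.47% between origins, 2.99% between pools, 2.33% for origin by pool and 24.3% left over, where the medians over all contigs were 51.1%, 6.01%, 2.37%, 2.83% and 24.8%. Cytosolic phospholipase A2 had the highest pool shares of the 118, 56.7% for contig172456 and 54.6% for contig204384. The highest coral share, 98.4%, belonged to Lipase member K (contig177153), with 297, 135, 116, 119, 281 and 152 in pool 300, against 325, 126, 131, 104, 257 and 160 in pool 400. Corals 2 and 68 were high in both pools, and the 2 fragments of every coral were close.

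The spread between corals was described by role, on the deposited scale only and with no test between roles. The log2 range of the 6 coral means had a median of 1.11 over the lipid contigs and 1.13 over all contigs, and was over 2 in 18 of 118 (15.3%), where 15.9% of all contigs were. Among the 23 neutral and other lipases the median range was 1.55, and 8 had a range over 2. It was over 2 in 4 of 20 phospholipases, in 0 of 9 ligases and synthetases, 0 of 8 enzymes of the carnitine shuttle and 0 of 8 of glycerolipid synthesis. The other roles had at most 1 such contig each, among them 1 of 2 fatty acid amide and hydroxylase enzymes and the 1 contig of fatty acid synthesis. The widest range, 4.52, was that of Phospholipid scramblase 1 (contig117258), with values of 2.90, 21.2, 8.05, 8.79, 3.61 and 35.2 in pool 300, against 0, 13.1, 9.51, 8.26, 5.5 and 55.4 in pool 400. Coral 70 was high and coral 2 low in both pools. The low end of this range, coral 2, rests on few reads, with none in pool 400, and so depends on the value added before taking logs.

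**Figure D5:**
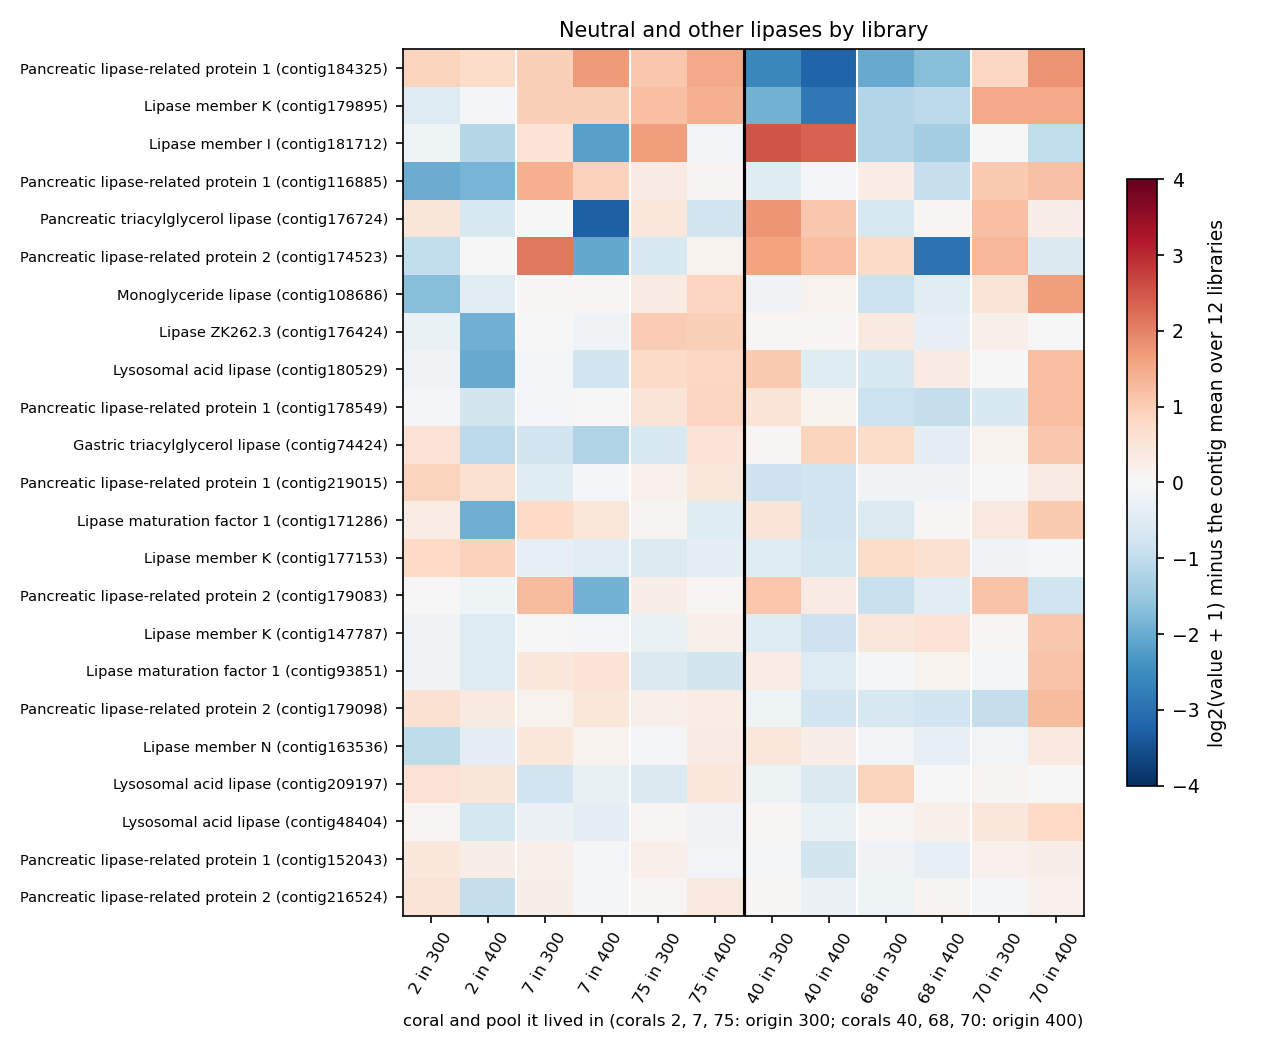
Each row is one of the 23 tested neutral and other lipases, ordered by the range of its coral means, and each column a library; colour gives log2(value + 1) minus the contig's mean over the 12 libraries. Coral 40 is low in both pools in contig184325 and contig179895 and high in both in contig181712. The fragments of a coral differed on average by 0.55 and 0.29 log2 units in contig184325 and contig179895. In other upper rows they differed by more: 1.13 in contig181712, 1.32 in contig176724 and 1.98 in contig174523.

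Contigs that share a description did not always share a pattern. Of 28 descriptions carried by more than 1 tested contig, 15 had pool differences of one sign and 11 had origin differences of one sign. The 5 contigs of Pancreatic lipase-related protein 1 ranged between -0.27 and 0.27 by pool and between -0.35 and 2.29 by origin, and contig219015 averaged 232.8 ± 102 across pool 300 fragments and 249.1 ± 79.5 across pool 400 fragments (SD, n = 6 each). The 4 tested contigs of Glycerol-3-phosphate acyltransferase 4 stayed between -0.19 and 0.17 by pool. Reads that fit more than 1 contig of a family may have been split between them, and the way they were counted is not stated in the labels.

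Other genes of lipid handling were read from lists of ketone body, peroxisome, sphingolipid, phosphatidate, lipoprotein and regulator descriptions, with 64 of 104 contigs tested. Of the 64, 1 passed by pool, where 0.344% of all contigs did. It was Low density lipoprotein receptor adapter protein 1-B (contig204658), which in mammals links the lipoprotein receptor to the endocytic coat, and its values fell to 76.7, 69.7, 215, 152, 106 and 129 in pool 300, against 301, 255, 677, 437, 466 and 213 in pool 400. The fall was seen in 6 of 6 corals, with coral 75 highest in both pools. The log2 difference was -1.64 (SE 0.17, limma adjusted p = 0.00703), and in corals from pool 300 -1.82 (SE 0.24, limma adjusted p = 0.00724). It did not pass after median-ratio rescaling (-1.65, limma adjusted p = 0.0731), by edgeR (-1.66, adjusted p = 0.0543) or without corals 40 and 68 (-1.54, limma adjusted p = 0.0939), and over all settings its adjusted p ran from 0.00156 to 0.0939. In corals from pool 300 it did not pass with no replicate block (limma adjusted p = 0.245), without coral 2 (limma adjusted p = 0.088), without coral 7 (limma adjusted p = 0.0541), after rescaling (limma adjusted p = 0.053) or by edgeR (adjusted p = 0.0545).

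No other contig of these lists passed by pool, by origin or in the difference between origins. D-beta-hydroxybutyrate dehydrogenase (contig147426), which interconverts the ketone bodies, had the lower value in pool 300 in 6 of 6 corals on the deposited scale. After rescaling coral 70 was higher in pool 300. The contig had a mean of 644.5 in pool 300 and 791.7 in pool 400 and a log2 difference of -0.31, with an SE of 0.08 (limma adjusted p = 0.182). Ceramide synthase 6 (contig155787), which makes the core of sphingolipids, was also lower in pool 300 in 6 of 6 corals, at -0.42 (SE 0.14, limma adjusted p = 0.582). Both counts of 6 hold for the labelled pairs. With the pool 400 fragments of corals 40 and 68 swapped, coral 68 was higher in pool 300 in contig147426 (816.4 against 572.6) and contig155787 (96.3 against 78.5). By origin, Hydroxymethylglutaryl-CoA lyase (contig188836), which forms acetoacetate, had a log2 difference of -1.0, with an SE of 0.34 (limma adjusted p = 0.998).

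Summed markers of other cell types were set beside these results. The 2 contigs of Symbiodinium photosynthesis summed to between 43.4 and 86.7 in pool 300, against 53.0 and 121 in pool 400, and 39 contigs of calcifying epithelium to between 2663 and 4579 in pool 300, against 2609 and 4456 in pool 400. The sums of the cnidocyte, muscle, germ line, and sperm and cilia lists also overlapped between pools, and the sums of all 6 lists overlapped between origins. By origin, the Symbiodinium sums lay between 53.0 and 121 in origin 300, against 43.4 and 86.7 in origin 400. No marker contig was at 0 in all libraries and none passed by pool or by origin, and the part of cell composition in the differences was not tested.

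The 41 contigs that were not tested had means between 3.12 and 9.88, and 26 of them had a read in every library. They included Hormone-sensitive lipase (contig217774), a lipase of stored fat in mammals, at a mean of 3.12, and both contigs of Sn1-specific diacylglycerol lipase alpha, at 4.08 (contig208435) and 4.24 (contig81462). Such values rest on few reads. Among these contigs, 2-hydroxyacyl-CoA lyase 1 (contig181610), an enzyme of peroxisomal alpha-oxidation that was chosen after its values were seen, had 7.24, 5.6, 5.03, 4.69, 3.61 and 5.71 in pool 300, against 4.97, 2.62, 4.22, 2.48, 2.75 and 5.54 in pool 400. It was higher in pool 300 in all 6 corals, and the pools overlapped.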

How the data were processed

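RNA of 12 polyp samples was sequenced from TruSeq libraries, per the labels' protocols. Per the submitters' processing notes, BWA and DESeq were used, in roles and versions not stated there. The deposited table gives a signal, reads divided by a size factor, per contig and library; it is headed as raw data, and the pool 400 columns are marked as adjusted, per the file headers, in a way not described there. Its 9 other value columns were not used. Reads were recovered as whole multiples of the worth of 1 read, at a tolerance of 0.01; 1 value was not whole and was read as 0. Library totals ran from 557339 to 1643526 reads, which limits the precision of low contigs.

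The 11903 contigs with a mean of at least 10 entered limma 3.58.1 (variance trend) as log2(value + 1) in R 4.3.3, Benjamini-Hochberg adjusted over all of them, so folds of low contigs are understated. The coral was a block for pool effects, since the labels give both fragments of a coral one number; deviations from group means correlated within 4 corals (r of 0.394 to 0.688) and less in corals 40 and 68. The corals are the replicates. Origin was tested on coral means. Alternatives were edgeR 4.0.16 (quasi-likelihood) on the recovered reads, other pseudocounts and minimum means, median-ratio rescaling, no block, an exchanged block and leaving out each coral; leaving out corals 40 and 68 together was added after seeing the data. The fits were tested on simulated data.

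The contigs, roles and lists were chosen with earlier results of these data known, and some word patterns were corrected after the matched names had been seen. Contigs were named by smallest p (12 for pool and for origin, 5 in the other comparisons), as the 2 of highest mean in each role, and in each other list as those passing and the 1 of smallest p. Without a genome or sequences, contigs have no position and descriptions were taken as deposited.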

Additional observations from a re-analysis of the deposited data

Results flagged for a closer look

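Carnitine O-palmitoyltransferase 2 (contig72509), which passes acyl chains back to coenzyme A inside mitochondria, had a mean over both fragments of 44.4 in coral 70, far from the nearest other coral at 24.9. Its values in coral 70 were 31.4 in pool 300 and 57.5 in pool 400, the library with the scale factor of 1.60. The gap made up 0.662 of the range of the 6 corals, above Dixon's critical value for 6 values. Of 24 such sets of 6 values examined 1 stood out, and chance marks about 5% of them. The part of the scaling was not tested.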

How the results depend on the processing

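In all 7 comparisons 0 lipid contigs passed as reported. By pool over 6 corals 1 passed with no minimum mean and 1 with the replicate block of corals 40 and 68 exchanged, and in corals from pool 300 1 passed with the exchanged block and 1 without both corals; the contig was Cytosolic phospholipase A2 (contig172456) each time, and the cause was not tested. With no replicate block 0 passed in the pool comparisons. Leaving out 1 coral gave 0 to 1 by pool, in corals from pool 300, by origin and by origin within pool 300, 0 to 2 by origin within pool 400, and 0 in corals from pool 400 and for the difference. The 50 other such counts under these settings stayed at 0. Of the named contigs' values 2 reversed, both by origin and not passing: Peroxisomal membrane protein PEX16 (contig158721) between -1.24 and 0.047 when 1 coral was left out (0.047 without coral 2), against -0.77 with all corals, and Lysophosphatidic acid phosphatase type 6 (contig9552) between -0.033 (without coral 70) and 0.65, against 0.40. Over all contigs the count of 41 by pool was 58 with no minimum mean, 63 with the exchanged block, 8 after rescaling and by edgeR, 0 without corals 40 and 68, and 4 to 74 without 1 coral; the 66 in corals from pool 300 ran from 9 to 98. Over all contigs the counts ran from 1 to 12 by origin (4 as reported), 0 to 5 within pool 300 (1) and 0 to 91 within pool 400 (3), with the 91 without coral 75, the setting in which 2 lipid contigs passed. Depth limits the contigs with few reads, and arms of 3 corals limit the origin tests.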
